A study of Mus musculus with 30 samples.

Results

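The 9 mouse genes Draxin, Kdr, Itga9, Muc20, Fam171a1, Prag1, Stk32c, Zcwpw1 and St7 were followed across RNA libraries of a pair of haematopoietic progenitor lines that carry different forms of STAT3. They are 9 of the 50686 genes listed in the count tables, and they were selected on their HPC7 counts, as raised by STAT3 over empty vector or as strongly different between STAT3 and its Y640F form in that line. The HPC7 values therefore describe the choice and carry no test, while the HPCLSK values were not used in it and were tested. The 9 genes had been gathered as genes that follow 1 STAT3 form. That name leaves out members that lay apart from empty vector with both forms in HPC7. For Draxin, Prag1, Kdr, Muc20 and Zcwpw1 every library of both forms lay above every empty vector library, and for Itga9 every one lay below. Of these, Zcwpw1 with Y640F had a log2 fold change of only 0.61 from empty vector. For St7 every STAT3 library lay above every empty vector library, and every Y640F library lay below. The share of all genes that lie apart in this way was not computed, and the 9 genes were chosen on these HPC7 values. These separations are therefore a description and are not shown to be particular to the 9.

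The groups were STAT3, STAT3Y640F (Y640F from here on) and empty vector, the last named in the labels after dsRed, in each of the lines HPC7 and HPCLSK. All came in retroviral vectors. The medium of both lines held stem cell factor, and the plates for HPCLSK were coated with agarose. As strain, the RNA labels of HPC7 have 129SV and those of HPCLSK have C57BL/6N, while the chromatin labels of HPC7 have C57BL/6N, so the strain of HPC7 is uncertain. Each of the 6 groups held 3 libraries, which the submitters call technical replicates, so p-values measure the spread between libraries of a culture and not between independent cultures.

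STAT3 is a transcription factor that rests in the cytoplasm until Janus kinases below a cytokine receptor phosphorylate it. Paired STAT3 molecules then enter the nucleus and bind the palindrome TTCNNNGAA near target genes. Y640F changes a residue of the SH2 domain through which the molecules pair, and it is known from human lymphoid leukaemias as an activating change. Blood progenitors receive such signals through several cytokine receptors, and Socs3, an inhibitor of Janus kinases, is a widely used STAT3 target.

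Library totals ran from 9537258 to 38556669 counts. Levels below are counts scaled to a common library size (CPM) after TMM scaling over all 18 libraries, and errors of levels are standard deviations over 3 libraries. Stat3 averaged 996 ± 17.1 CPM with STAT3, 669 ± 20.9 with Y640F and 225 ± 10.1 with empty vector in HPC7 (n = 3 each). In HPCLSK it averaged 599 ± 42.2, 1900 ± 45.0 and 355 ± 12.4 CPM in the same order, so the form with more Stat3 RNA was not the same in the lines. Socs3 was at 1.66 ± 0.161 CPM with STAT3 and 15.7 ± 0.740 with Y640F in HPC7, against 3.17 ± 0.377 with empty vector (n = 3 each). In HPCLSK it was at 40.3 ± 4.49 CPM with STAT3 and 196 ± 21.3 with Y640F, against 28.6 ± 5.89 with empty vector. Lhx2, a homeobox gene, differed widely between the lines, with group means of 2.67 to 8.92 CPM in HPC7 and 984 to 1290 CPM in HPCLSK. All 12 haematopoietic progenitor markers examined reached 5 CPM in every group, though not at like levels. Cd34 was at 41.2 CPM with STAT3 and 193 with Y640F in HPC7, against 609 with empty vector. In HPCLSK Cd34 was at 983 CPM and Kit at 259 CPM with Y640F, against 2340 and 744 CPM with empty vector. Not all of the 12 fell. By the call rule below, 1 was higher and 1 lower with Y640F against empty vector in HPC7, where 8.18% of all genes tested were called. In HPCLSK 1 was higher and 2 lower with Y640F, beside 16.2% of all genes. The median log2 fold change of the 12 from empty vector was 0.26 with STAT3 and 0.33 with Y640F in HPC7, and −0.18 with Y640F in HPCLSK. Per the file headers the lines were sequenced on separate flow cells, so line, labelled strain and sequencing run cannot be told apart.

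A gene was called when edgeR's quasi-likelihood test within a line gave a Benjamini-Hochberg adjusted p under 0.05 and the log2 fold change was at least 1 in size. In HPC7 this rule held for 6 of the 9 genes for STAT3 against empty vector, where it held for 7.22% of 12683 genes tested. Of these 6, 5 were higher and 1 lower, beside 1.81% and 5.41% of all genes tested. For Y640F against empty vector it held for 8 of the 9 (8.18% of all genes tested), 5 higher (4.54%) and 3 lower (3.64%). For Y640F against STAT3 it held for 6 of the 9 (7.89%), 1 higher (6.17%) and 5 lower (1.73%). These HPC7 counts follow from how the genes were selected. In HPCLSK, 5 of the 9 genes passed the filter on low counts, namely Prag1, Zcwpw1, St7, Fam171a1 and Itga9. For STAT3 against empty vector 1 of the 9 was called, Itga9, which was lower (4.6% of 12552 genes tested were called, 1.79% lower). For Y640F against empty vector 2 of the 9 were called (16.2% of all genes tested), Prag1 higher (9.62%) and Itga9 lower (6.57%). For Y640F against STAT3 3 of the 9 were called (14.2%), Prag1 higher (8.11%) and Zcwpw1 and Itga9 lower (6.09%). Prag1 passed the HPCLSK filter through its Y640F libraries and Kdr passed the HPC7 filter through its STAT3 and Y640F libraries, so each of them had to differ between groups to be tested at all, and the Prag1 calls in HPCLSK are given as a description. The median log2 fold change of all genes tested lay between −0.01 and 0.01 in the 6 comparisons.

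**Figure D1:**
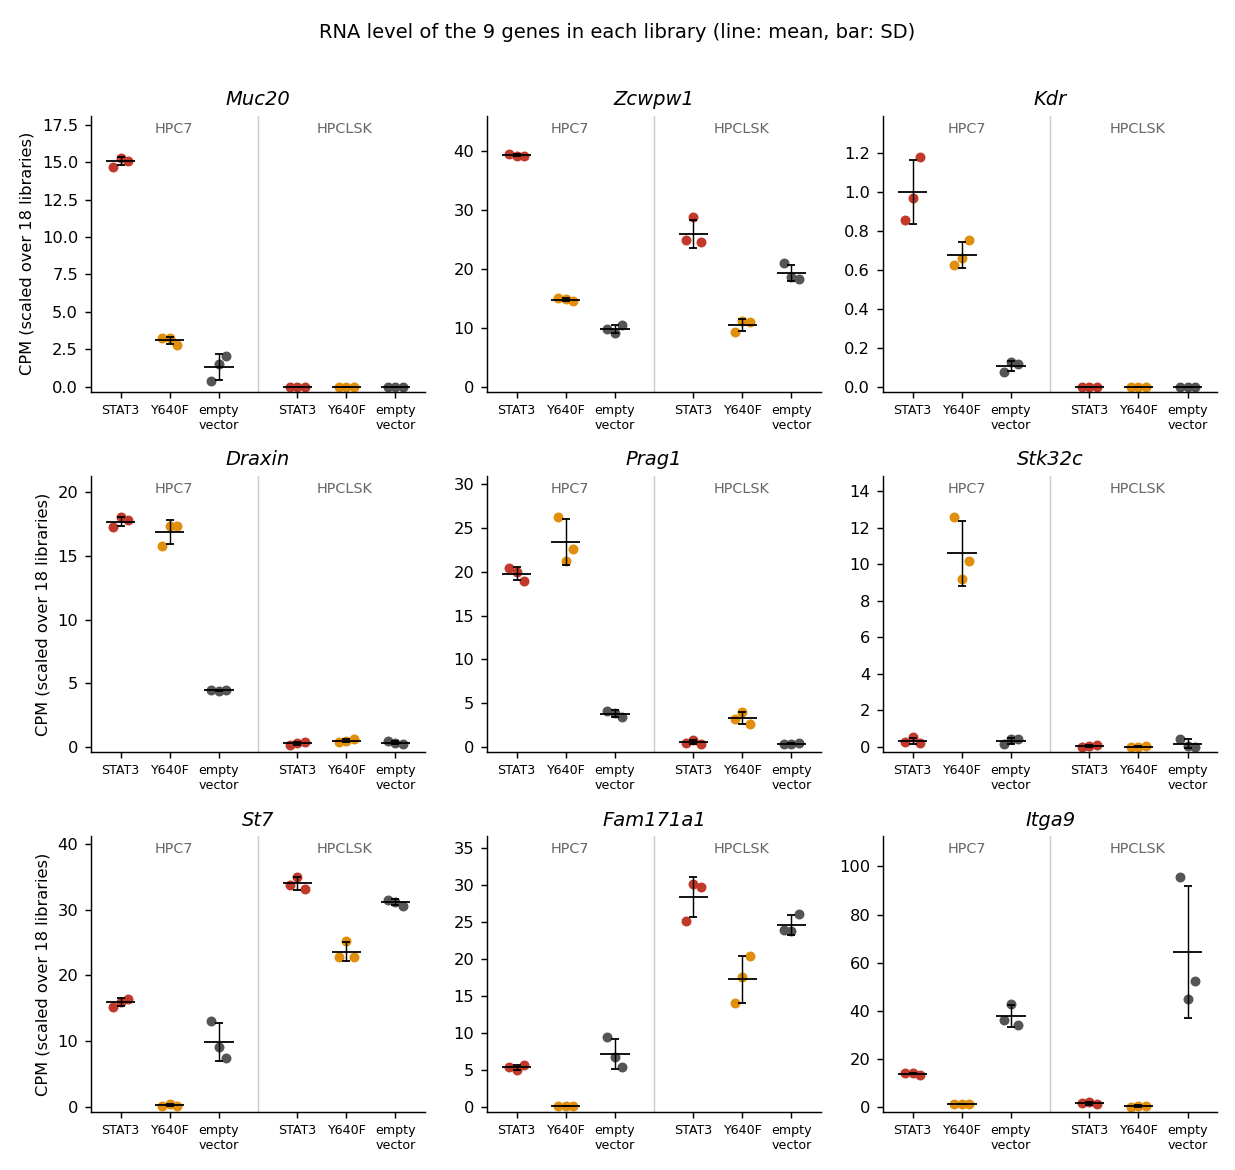
RNA level of each of the 9 genes in CPM (vertical axis) in every library of the 6 groups, HPC7 left and HPCLSK right in each panel; points are libraries, horizontal lines are means and bars are SD over 3 libraries. Muc20 and Kdr lie at 0 in all 9 HPCLSK libraries, Itga9 is lowest with Y640F in both lines, and Stk32c exceeds 9 CPM in the HPC7 Y640F libraries alone.

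Promoter sequences were taken from RefSeq (build GRCm38.p6) as windows from 250 bases before to 50 bases after an annotated start. They were found for 8 of the 9 genes, all but Prag1, with 14 windows in all. The only Itga9 window, chr9:118711442-118711741, lies inside the counted gene (chr9:118606690-118901003). The region at the start of that gene was therefore not searched. Each window was searched on both strands for TTCNNNGAA, the palindrome of STAT factors, and for its form with a spacer longer by 1 base (TTC and GAA with 4 bases between them); both read the same on either strand and were counted wherever they occurred. None of the 14 windows held TTCNNNGAA, which 8.3% of 32851 promoters hold. A pair of windows held the longer form, which 6.95% of all promoters hold; either motif occurs in 14.6%. The windows with a match belong to 1 annotated start of Zcwpw1 and to an alternative start of St7, and the other windows of these genes held none. They are printed below over the 250 bases upstream of the start with the match in capitals, beside Muc20 and Stk32c, the members whose HPC7 level exceeded empty vector by the greatest factor with STAT3 and with Y640F, neither of which held a match. No match says only that these letters are not in these windows.
Zcwpw1, chr5:137787081-137787330, plus strand: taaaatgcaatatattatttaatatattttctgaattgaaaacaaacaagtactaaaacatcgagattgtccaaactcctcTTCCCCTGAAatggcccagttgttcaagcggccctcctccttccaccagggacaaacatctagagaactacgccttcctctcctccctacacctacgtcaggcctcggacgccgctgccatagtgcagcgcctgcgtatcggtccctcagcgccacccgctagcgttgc
St7, chr6:17748920-17749169, plus strand: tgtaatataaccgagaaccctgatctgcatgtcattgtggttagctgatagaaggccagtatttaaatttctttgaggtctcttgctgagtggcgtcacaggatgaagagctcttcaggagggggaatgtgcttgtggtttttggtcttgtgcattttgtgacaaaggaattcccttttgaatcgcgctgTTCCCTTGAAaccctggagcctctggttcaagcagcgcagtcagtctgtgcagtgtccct
Muc20, chr16:32797436-32797685, minus strand: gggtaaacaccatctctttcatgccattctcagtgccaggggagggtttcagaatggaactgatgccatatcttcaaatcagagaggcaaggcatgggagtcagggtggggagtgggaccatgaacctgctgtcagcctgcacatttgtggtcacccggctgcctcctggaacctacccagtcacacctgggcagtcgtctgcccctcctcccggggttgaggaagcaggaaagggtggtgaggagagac
Stk32c, chr7:139213308-139213557, minus strand: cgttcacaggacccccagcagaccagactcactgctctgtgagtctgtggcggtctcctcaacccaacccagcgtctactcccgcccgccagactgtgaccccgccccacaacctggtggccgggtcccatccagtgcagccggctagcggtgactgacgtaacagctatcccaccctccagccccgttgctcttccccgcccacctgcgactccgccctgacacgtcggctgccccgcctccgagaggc
The match of Zcwpw1 began at position −169 and that of St7 at position −60 from the annotated start. The Zcwpw1 window with the match ends at base 137787380, before the gene as counted (chr5:137787798-137822621). Its other window, chr5:137787552-137787851, reaches into the counted gene and held no match. The St7 window with the match lies inside the gene (chr6:17692933-17943025). Base composition varied widely among the windows. The G and C share was 78.0% at Draxin, 66.3% at the Stk32c window shown, 59.3% at Muc20, 50.3% at the Zcwpw1 window shown and 48.0% at the St7 window shown, against a median of 52.7% over all promoters (quartiles 45.7% and 61.7%).

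Draxin (chr4:148098437-148130698, minus strand) encodes a secreted guidance protein of growing axons that binds netrin receptors and inhibits Wnt signalling. In HPC7 it stood at 17.3, 18.1 and 17.8 CPM with STAT3 and at 15.8, 17.4 and 17.4 CPM with Y640F, against 4.44, 4.36 and 4.49 CPM with empty vector. The libraries of the 2 forms overlapped, and every one of them lay above every empty vector library. On the log2 scale the fold changes from empty vector were 2.00 ± 0.08 with STAT3 and 1.95 ± 0.08 with Y640F (the error here and below is the standard error), and Y640F differed from STAT3 by −0.05 ± 0.06. In HPCLSK the level was 0.287 ± 0.125 CPM with STAT3, 0.483 ± 0.0941 with Y640F and 0.315 ± 0.115 with empty vector (n = 3 each), below the filter, on 12, 25 and 16 counts per group. The 3 HPCLSK groups overlapped with their neighbours in order. Draxin RNA was thus 14.1 times as high in HPC7 as in HPCLSK with empty vector, and 61.7 times with STAT3. Mad2l2, which overlaps it on the opposite strand, had log2 fold changes of 0.40 ± 0.07 with STAT3 and 0.42 ± 0.07 with Y640F in HPC7.

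Of the other genes in the netrin and Wnt guidance list, 4 passed the filter in HPCLSK. Ntn4, a secreted netrin, was higher with STAT3, at 3.69 ± 0.469 CPM against 0.824 ± 0.0968 with empty vector (log2 fold change 2.16 ± 0.21, edgeR adjusted p = 0.0001). It was lower with Y640F than with STAT3, by −2.71 ± 0.23 (edgeR adjusted p = 6e-06). Unc5a, a netrin receptor, fell with Y640F to 1.89 ± 0.649 CPM, against 5.29 ± 0.704 with empty vector (−1.45 ± 0.23, edgeR adjusted p = 0.00034). The counts were 1 higher and 0 lower for STAT3 against empty vector, 0 higher and 1 lower for Y640F against empty vector, and 0 higher and 2 lower for Y640F against STAT3, beside 4.6%, 16.2% and 14.2% of all genes tested that were called in the 3 comparisons.

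Kdr (chr5:75932827-75978458, minus strand) encodes the main signalling receptor for VEGF-A, which marks endothelium and the embryonic progenitors shared by vessels and blood. In HPC7 it was low throughout, at 0.853, 0.968 and 1.18 CPM with STAT3 and 0.622, 0.658 and 0.750 CPM with Y640F, against 0.0772, 0.128 and 0.117 CPM with empty vector. These levels rest on 99, 71 and 9 counts per group, and the 3 groups did not overlap. Relative to empty vector, the log2 fold changes were 3.16 ± 0.33 with STAT3 and 2.64 ± 0.35 with Y640F, and that of Y640F against STAT3 was −0.53 ± 0.21. No count fell on Kdr in any of the 9 HPCLSK libraries. With a floor of 3 counts over each HPCLSK group, the mean HPC7 level was 14.3 times the floor with STAT3 and 11.4 times with Y640F. With empty vector it was 1.9 times the floor. The floors cover counting error in HPCLSK only, and the HPC7 empty vector level rests on 9 counts. The value of 1.9 is therefore not a lower bound on a difference between the lines.

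The median log2 fold change of all tested genes on chromosome 5, which carries Kdr and Zcwpw1, was 0.36 with STAT3 and 0.33 with Y640F against empty vector in HPC7. In HPCLSK the 3 medians of that chromosome lay between −0.013 and 0.013. The part of this shift in the Kdr and Zcwpw1 values was not tested. Among 12 endothelial markers, 2 reached 5 CPM in each HPC7 group, Emcn and Cldn5 stood at 0 in all HPC7 libraries, and the summed level was 493 to 510 CPM with STAT3, 462 to 482 with Y640F and 404 to 485 with empty vector.

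Of the other VEGF receptors and ligands, 5 were tested in HPCLSK. With Y640F against empty vector 3 of them were higher, beside 9.62% of all genes tested, and 0 lower, with the same 3 against STAT3, while 0 of 5 were called for STAT3 against empty vector by edgeR or by DESeq2 (1 of 5 had an unadjusted p under 0.05). Nrp2, a coreceptor, stood at 269 ± 129 CPM with Y640F, against 23.9 ± 6.98 with empty vector (log2 fold change 3.48 ± 0.40, edgeR adjusted p = 3.1e-05). Nrp1, its relative, stood at 16.4 ± 10.6 CPM with Y640F, against 1.86 ± 0.935 (3.10 ± 0.46, edgeR adjusted p = 0.00021). Vegfc, a ligand of lymphatic vessels, was at 3.17 ± 1.09 CPM with Y640F, against 1.02 ± 0.228 (1.67 ± 0.30, edgeR adjusted p = 0.00078). Vegfa, the ligand of Kdr, had 0.86 ± 0.08 and Vegfb −0.11, and neither was called. The median over the 5 was 1.67, beside −0.01 over all genes tested.

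Itga9 (chr9:118606690-118901003, plus strand) encodes the alpha-9 integrin chain, which pairs with the beta-1 chain into a receptor for tenascin-C, osteopontin and VCAM-1. It was the only one of the 9 genes called lower with both forms in HPCLSK. There it stood at 1.46, 2.09 and 1.03 CPM with STAT3 and at 0.0674, 0.523 and 0.538 CPM with Y640F, against 95.7, 44.9 and 52.2 CPM with empty vector. No library of either form came near an empty vector library, and the first empty vector library was well above the other 2. The log2 fold change was −5.26 ± 0.38 with STAT3 (edgeR adjusted p = 1.5e-05) and −7.30 ± 0.45 with Y640F (edgeR adjusted p = 5.4e-07). Without the first empty vector library these were −4.87 and −6.93.

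Y640F against STAT3 gave −2.04 ± 0.75 for Itga9 in HPCLSK (edgeR adjusted p = 0.04). This call rests on 20 counts against 72. It was lost without STAT3 replicate 1 (−2.13, edgeR adjusted p = 0.062), STAT3 replicate 2 (−1.67, 0.18), Y640F replicate 1 (−1.65, 0.14), Y640F replicate 2 (−2.28, 0.061) or Y640F replicate 3 (−2.43, 0.065).

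In HPC7, Itga9 stood at 13.9, 14 and 13.4 CPM with STAT3 and at 1.11, 1.14 and 1.08 CPM with Y640F, against 36.3, 42.9 and 34.1 CPM with empty vector. The 3 groups lay apart, in the same order as in HPCLSK. The log2 fold changes were −1.45 ± 0.08 for STAT3, −5.07 ± 0.12 for Y640F and −3.61 ± 0.13 for Y640F against STAT3. Across both lines the order of group means was HPCLSK empty vector, HPC7 empty vector, HPC7 STAT3, HPCLSK STAT3, HPC7 Y640F and HPCLSK Y640F. Only HPCLSK STAT3 and HPC7 Y640F overlapped as neighbours in that order. Gm2415, which overlaps Itga9 on the opposite strand, was higher with both forms in HPC7, at 4.57 CPM with STAT3 and 3.83 with Y640F, against 1.66 with empty vector (1.44 ± 0.17 and 1.20 ± 0.17, edgeR adjusted p = 8.9e-06 and 4.1e-05). It was not called for Y640F against STAT3 there (−0.24 ± 0.14) or in HPCLSK, where it had 0.04 ± 0.13 with STAT3 and −0.27 ± 0.13 with Y640F.

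Of 18 integrin chains tested in HPCLSK, 1 was higher and 1 lower with STAT3 against empty vector, beside 2.8% and 1.79% of all genes tested. With Y640F, 3 were higher and 4 lower, beside 9.62% and 6.57%. Besides Itga9, STAT3 moved Itga2, a collagen receptor chain, to 2.22 ± 0.141 CPM, against 0.813 ± 0.298 with empty vector (1.49 ± 0.32, edgeR adjusted p = 0.011). Y640F raised Itgax (2.85 ± 0.53), Itgam (2.30 ± 0.16) and Itgb2 (2.00 ± 0.18), chains of the leukocyte beta-2 integrins, with edgeR adjusted p of 0.00088, 1.3e-06 and 7e-06. It lowered Itgad, another alpha chain of that family, by −3.91 ± 0.25 (edgeR adjusted p = 6.6e-07). Itgb3 and Itga2b, the chains of the platelet fibrinogen receptor, fell with Y640F as well, by −1.48 ± 0.06 (edgeR adjusted p = 4e-08) and −1.16 ± 0.18 (edgeR adjusted p = 0.00025). Of 7 megakaryocyte markers tested, 4 were lower and 1 higher with Y640F. Itga2b is among the 4 lower, and the median of the 7, −1.16, is its own value. Pf4, a platelet chemokine, changed by −1.42 ± 0.14. With STAT3 0 of the 7 were called by edgeR or by DESeq2 (2 had an unadjusted p under 0.05), with a median of 0.10. The summed level of all 9 markers in the list was 497 to 735 CPM with Y640F and 809 to 919 with STAT3, against 1200 to 1700 with empty vector. Most of that sum was Itga2b itself, and the other 8 summed to 103 to 127 CPM with Y640F and 223 to 301 with STAT3, against 214 to 296 with empty vector. The part of these markers in the Y640F changes was not tested. Itgb1, the partner chain of Itga9, stood at 492 ± 20.6 CPM with STAT3 and 525 ± 83.6 with Y640F, against 486 ± 6.73 with empty vector (0.02 ± 0.09 and 0.12 ± 0.09, not called). The median over the 18 chains was 0.03 with STAT3 and 0.04 with Y640F.

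**Figure D2:**
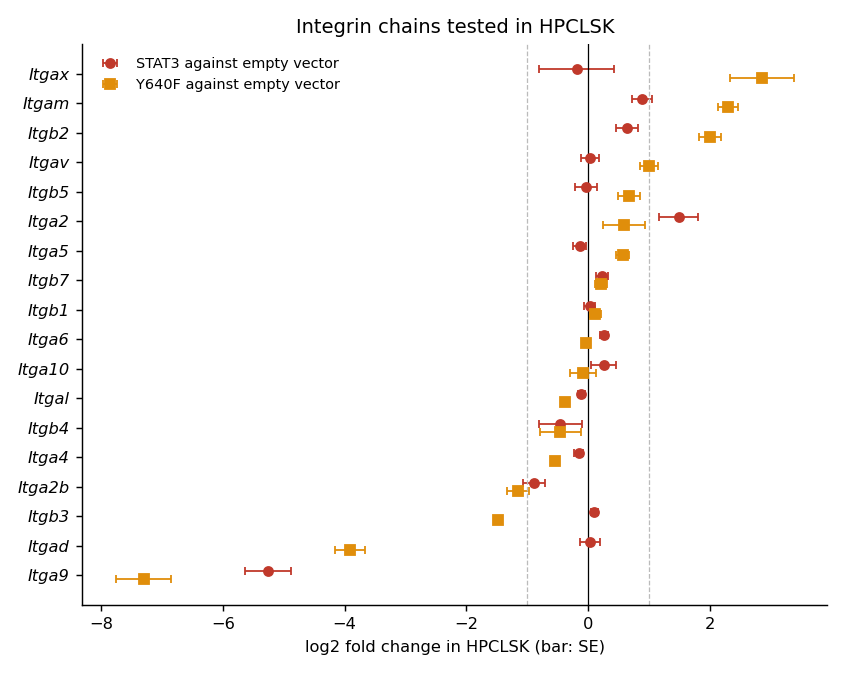
Log2 fold change in HPCLSK (horizontal axis) of the 18 integrin chains tested, for STAT3 (red circles) and Y640F (orange squares) against empty vector; bars are SE and dashed lines mark a log2 fold change of 1 in either direction. Itga9 stands at −5.26 with STAT3 and −7.30 with Y640F, while the chains nearest to it on the low side are at −0.89 with STAT3 (Itga2b) and −3.91 with Y640F (Itgad).

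Of 6 ligands of the alpha-9 beta-1 receptor tested in HPCLSK, 1 was higher (2.8% of all genes tested) and 0 lower with STAT3, and 3 were higher (9.62%) and 0 lower with Y640F. Spp1, which encodes osteopontin, stood at 34.3 ± 20.2 CPM with STAT3 and 922 ± 209 CPM with Y640F, against 3.86 ± 1.56 CPM with empty vector (3.14 ± 0.43 and 7.84 ± 0.44, edgeR adjusted p = 0.00082 and 3e-07). Fn1, which encodes fibronectin, stood at 4.13 ± 0.845 CPM with Y640F, against 0.0875 ± 0.0867 CPM (5.37 ± 0.47), and Vegfc, described above, was the third. No p is given for Fn1, which passed the filter through its Y640F libraries. Of 8 monocyte and macrophage markers, all detected in each HPCLSK group, 6 were higher and 0 lower with Y640F against empty vector, and 1 was higher and 1 lower with STAT3. Ly6c2 was at 25.2 CPM with Y640F and 195 with STAT3, against 45.7 with empty vector, and Ccr2 was at 245 CPM with Y640F and 91.3 with STAT3, against 235. The summed level of the 8, most of it from Lyz2 with Y640F (6040 CPM), was 6540 to 9570 CPM with Y640F and 1270 to 2300 with STAT3, against 1080 to 1320 with empty vector. Of 10 granulocyte markers, none at 0, 7 were higher and 0 lower with STAT3 against empty vector, and 3 were higher and 3 lower with Y640F. Their sum was 14400 to 21800 CPM with STAT3 and 12800 to 17600 with Y640F, against 7940 to 12500 with empty vector. With Y640F, S100a8 changed by 4.52 and S100a9 by 3.90, while Ltf changed by −2.05, Camp by −1.96 and Ngp by −1.40. The part of these markers in the HPCLSK changes was not tested, and fewer cells of a type cannot be told apart from less RNA per cell.

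Muc20 (chr16:32777419-32797435, minus strand) encodes a membrane mucin that in human cells binds the MET receptor and dampens its signalling. Its promoter is shown above. In HPC7 it stood at 14.7, 15.3 and 15.1 CPM with STAT3 and at 3.24, 3.23 and 2.8 CPM with Y640F, against 0.386, 1.54 and 2.04 CPM with empty vector. The groups did not overlap, and the first empty vector library, with 10 counts, was far below the other 2. The log2 fold change was 3.45 ± 0.24 with STAT3, 1.18 ± 0.29 with Y640F and −2.27 ± 0.20 for Y640F against STAT3. Without the first empty vector library, that of Y640F against empty vector was 0.77, under the minimum of the call rule, and without the third it was 1.73. No count fell on Muc20 in any HPCLSK library. The mean HPC7 level was 216 times the HPCLSK floor with STAT3, 52.1 times with Y640F and 23.4 times with empty vector. Counting error in HPC7 is not part of these floors.

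Met itself was near 0 in HPC7, with group means of at most 0.0102 CPM, and stood at 73.4 ± 5.6 CPM with STAT3 and 70.2 ± 29.8 with Y640F, against 85.9 ± 6.85 with empty vector in HPCLSK. Muc20 was detected in HPC7 alone. Of 8 genes of the MET list tested in HPCLSK, 1 was higher and 1 lower with each form against empty vector, where 4.6% of all genes tested were called with STAT3 and 16.2% with Y640F. Mst1, a ligand of the related receptor RON, was higher (1.83 ± 0.33 with STAT3 and 2.41 ± 0.30 with Y640F); it passed the filter through those libraries, and no p is given. Hgf, the ligand of MET, was lower, at 45.4 ± 0.777 CPM with STAT3 and 37.1 ± 1.70 with Y640F, against 115 ± 21.0 with empty vector (−1.34 ± 0.11 and −1.62 ± 0.11, edgeR adjusted p = 2.8e-05 and 8.7e-07).

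Fam171a1 (chr2:3114224-3227806, plus strand) encodes a membrane protein whose function is little known. Its HPC7 levels were 5.42, 5.03 and 5.72 CPM with STAT3 and 0.164, 0.179 and 0.125 CPM with Y640F, against 9.42, 6.71 and 5.39 CPM with empty vector. The STAT3 and empty vector libraries overlapped, and every Y640F library lay far below them, on 16 counts in all. Fam171a1 had log2 fold changes of −0.40 ± 0.17 with STAT3, −5.48 ± 0.30 with Y640F and −5.07 ± 0.31 for Y640F against STAT3. The median of tested genes on chromosome 2 ran the other way, at 0.47 for Y640F against empty vector.

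In HPCLSK, Fam171a1 stood at 25.2, 30.1 and 29.8 CPM with STAT3 and at 14, 17.6 and 20.4 CPM with Y640F, against 23.9, 23.8 and 26.1 CPM with empty vector. The Y640F libraries were the lowest 3, and those of STAT3 and empty vector overlapped. None of the 3 comparisons reached the call rule. Its log2 fold changes there were 0.21 ± 0.12 with STAT3 (edgeR adjusted p = 0.3), −0.49 ± 0.13 with Y640F (edgeR adjusted p = 0.0063) and −0.70 ± 0.13 for Y640F against STAT3 (edgeR adjusted p = 0.00087). With Y640F the level in HPCLSK was 111 times that in HPC7, against 3.43 times with empty vector; this difference between the lines was not tested.

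St7 (chr6:17692933-17943025, plus strand) is named for suppression of tumorigenicity in human cells and was likewise lowest with Y640F in HPC7. With STAT3 in HPC7 it stood at 15.2, 16.0 and 16.4 CPM and with Y640F at 0.164, 0.418 and 0.150 CPM, against 13, 9.15 and 7.46 CPM with empty vector. The 3 groups did not overlap, and the Y640F group held 25 counts in all, 14 of them in its second library. The log2 fold changes were 0.69 ± 0.16 with STAT3, −5.31 ± 0.31 with Y640F and −6.00 ± 0.29 for Y640F against STAT3. Without that second Y640F library the last 2 were −5.92 and −6.62.

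In HPCLSK, St7 stood at 33.7, 35 and 33.1 CPM with STAT3 and at 22.8, 25.3 and 22.8 CPM with Y640F, against 31.5, 31.2 and 30.6 CPM with empty vector. The 3 groups lay apart in the same order as in HPC7 and by much less. The log2 fold changes were 0.13 ± 0.07 with STAT3 (edgeR adjusted p = 0.21), −0.39 ± 0.07 with Y640F (edgeR adjusted p = 0.0005) and −0.52 ± 0.07 for Y640F against STAT3 (edgeR adjusted p = 8.9e-05), none reaching the minimum fold of the call rule. The ratio of HPCLSK to HPC7 was 96.7 with Y640F, 2.14 with STAT3 and 3.14 with empty vector. Gm43844, an RNA gene overlapping St7 on the same strand, was lower with Y640F than with STAT3 in HPCLSK, at 0.489 and 1.31 CPM (−1.36 ± 0.35, edgeR adjusted p = 0.0068). How reads over stretches shared by St7 and Gm43844 were counted was not examined.

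Prag1 (chr8:36094828-36147787, plus strand) encodes a pseudokinase that acts as a scaffold in Src-family kinase signalling. In HPC7 it stood at 20.4, 20 and 19.0 CPM with STAT3 and at 26.3, 21.2 and 22.6 CPM with Y640F, against 4.13, 3.89 and 3.38 CPM with empty vector. Both forms lay above empty vector, and the Y640F libraries lay just above those of STAT3. Prag1 had log2 fold changes of 2.39 ± 0.11 with STAT3, 2.65 ± 0.10 with Y640F and 0.25 ± 0.08 for Y640F against STAT3.

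In HPCLSK, Prag1 stood at 0.488, 0.761 and 0.310 CPM with STAT3 and at 3.17, 3.98 and 2.64 CPM with Y640F, against 0.372, 0.268 and 0.405 CPM with empty vector. The STAT3 and empty vector libraries overlapped, on 25 and 18 counts, and the 3 Y640F libraries, with 162 counts, lay above both. The log2 fold change was 3.23 ± 0.32 with Y640F, 0.73 ± 0.42 with STAT3 and 2.50 ± 0.30 for Y640F against STAT3. No p is given for these, since Prag1 passed the filter through its Y640F libraries; without that filter the values were 3.22, 0.72 and 2.50. Its highest HPCLSK group, Y640F at 3.27 ± 0.676 CPM, overlapped with empty vector in HPC7 at 3.80 ± 0.384 CPM.

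Stk32c (chr7:139103638-139213307, minus strand) encodes a serine/threonine kinase of little known function. It was high in a single group. Its HPC7 levels were 12.6, 9.18 and 10.2 CPM with Y640F, against 0.274, 0.511 and 0.202 CPM with STAT3 and 0.154, 0.428 and 0.408 CPM with empty vector. The Y640F libraries held 1098 counts and the STAT3 and empty vector libraries, which overlapped, held 34 and 28. The log2 fold changes were 4.97 ± 0.24 for Y640F against STAT3, 4.99 ± 0.25 for Y640F against empty vector and 0.02 ± 0.46 for STAT3. In HPCLSK it held 2 counts with STAT3 and 1 with Y640F, against 7 with empty vector, 6 of these in the first library, and was below the filter. With Y640F the ratio of HPC7 to HPCLSK was 534, with an exact 95% counting interval of 95.7 to 21100 on 1098 and 1 counts. Lrrc27, which overlaps Stk32c on the opposite strand, was not called in any of the 6 comparisons.

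Zcwpw1 (chr5:137787798-137822621, plus strand) encodes a reader of histone methylation that in mouse works with PRDM9 in meiotic recombination. In HPC7 it stood at 39.5, 39.2 and 39.2 CPM with STAT3 and at 15, 14.9 and 14.5 CPM with Y640F, against 9.73, 9.15 and 10.4 CPM with empty vector. The groups lay apart, and the STAT3 libraries differed by less than 1 CPM. Zcwpw1 had log2 fold changes of 2.00 ± 0.06 with STAT3, 0.61 ± 0.07 with Y640F and −1.39 ± 0.06 for Y640F against STAT3.

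In HPCLSK, Zcwpw1 stood at 24.9, 28.8 and 24.5 CPM with STAT3 and at 9.37, 11.2 and 11 CPM with Y640F, against 21.0, 18.7 and 18.3 CPM with empty vector. Again STAT3 lay highest, and here Y640F lay lowest. The log2 fold change was −1.31 ± 0.10 for Y640F against STAT3 (edgeR adjusted p = 4.4e-06). Those of STAT3, 0.45 ± 0.10 (edgeR adjusted p = 0.013), and of Y640F, −0.86 ± 0.10 (edgeR adjusted p = 4.8e-05), against empty vector did not reach the minimum fold. Over both lines the order of means was HPC7 STAT3, HPCLSK STAT3, HPCLSK empty vector, HPC7 Y640F, HPCLSK Y640F and HPC7 empty vector, and only the last 2 overlapped. Of 9 genes of meiotic recombination tested in HPCLSK, Zcwpw1 among them, 0 were called with STAT3 by edgeR or by DESeq2 (2 of 9 had an unadjusted p under 0.05). With Y640F against empty vector 0 were higher and 2 lower (6.57% of all genes tested were lower), Rec8, a meiotic cohesin (−3.79 ± 0.29, edgeR adjusted p = 2.1e-06), and Spo11, which makes the meiotic breaks (−1.59 ± 0.37, edgeR adjusted p = 0.0035).

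Pilra, an inhibitory receptor gene of myeloid cells, overlaps Zcwpw1 on the opposite strand. In HPC7 it was at 0.0293 CPM with STAT3 on 3 counts, against 1.08 CPM on 88 counts with empty vector, a ratio of 0.0286 (exact 95% counting interval 0.00578 to 0.0863; edgeR adjusted p = 2.7e-06). With Y640F it was at 1.16 CPM on 118 counts, 37.7 times the STAT3 level (interval 12.6 to 186; edgeR adjusted p = 1.2e-06). In HPCLSK it was at 194 CPM with Y640F, against 70.3 CPM with STAT3 and 55.3 CPM with empty vector (1.45 ± 0.23 and 1.83 ± 0.23, edgeR adjusted p = 0.00037 and 6.5e-05). These calls run opposite to the sign of Zcwpw1, whereas the uncalled values of Pilra for Y640F against empty vector in HPC7 (0.13 ± 0.25) and for STAT3 against empty vector in HPCLSK (0.38 ± 0.23) have its sign. Its paired receptor gene Pilrb1, 29.5 kb away, was also higher with Y640F in HPCLSK, at 26.4 CPM against 12.5 CPM with STAT3 and 10.7 CPM with empty vector (1.04 ± 0.21 and 1.33 ± 0.21, edgeR adjusted p = 0.0017 and 0.0003). Another 3 neighbours were lower with Y640F than with STAT3 in HPCLSK, as Zcwpw1 was, namely Gm7285 (−1.30 ± 0.34, edgeR adjusted p = 0.008), Gm36266 (−1.26 ± 0.27, 0.0024) and Gm15753 (−1.76 ± 0.62). No p is given for Gm15753, which passed the filter largely through its STAT3 libraries. It averaged 0.794 CPM with STAT3 and 0.214 with Y640F there, against 0.318 with empty vector.

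**Figure D3:**
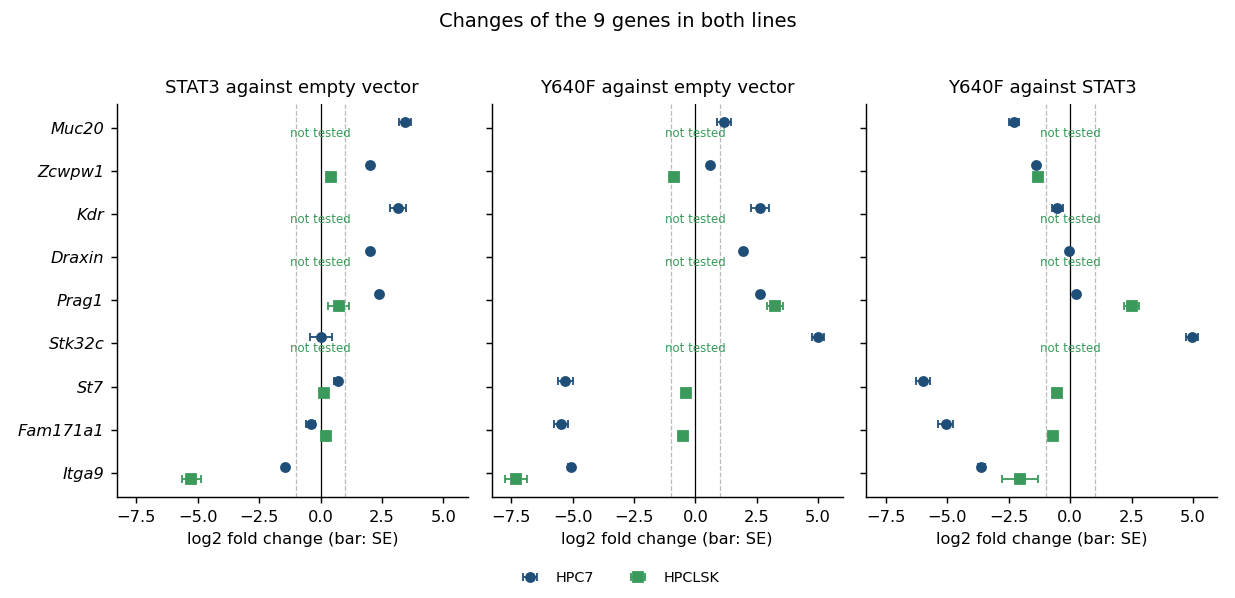
Log2 fold change (horizontal axis) of the 9 genes (rows) for STAT3 and Y640F against empty vector and for Y640F against STAT3, in HPC7 (blue circles, description only) and HPCLSK (green squares); bars are SE and dashed lines mark 1 in either direction. Itga9 is lower in all 6 comparisons, while St7 and Fam171a1 lie near −5 to −6 with Y640F in HPC7 and between −0.39 and −0.70 in HPCLSK.

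On a scale that allows levels of different genes to be compared, CPM per kilobase of exon, the highest mean of the 9 genes in HPC7 was that of Zcwpw1 with STAT3, at 6.90 ± 0.0235. Itga9 with empty vector followed at 4.91 ± 0.595, then Stk32c with Y640F at 4.62 ± 0.768 and Muc20 with STAT3 at 3.74 ± 0.0679. Kdr was lowest at its peak, with 0.111 ± 0.0182 with STAT3. In HPCLSK the highest was Itga9 with empty vector, at 8.36 ± 3.57, with Fam171a1 with STAT3 at 6.39 ± 0.614. Without the first empty vector library Itga9 was at 6.31, so their order rests on that library.

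Within 250 kb of the 9 genes, 57 other genes were tested in HPC7. Of these neighbours 3 (5.26%) were called for STAT3 against empty vector, 10 (17.5%) for Y640F against empty vector and 5 (8.77%) for Y640F against STAT3. Beside them, 7.22%, 8.18% and 7.89% of all genes tested were called. Of the 10, 4 lie near Zcwpw1. In HPCLSK 52 neighbours were tested, of which 1 (1.92%), 5 (9.62%) and 8 (15.4%) were called in the same comparisons. There 4.6%, 16.2% and 14.2% of all genes tested were called. Around St7, the 2 neighbours tested in HPC7 had log2 fold changes of −0.28 and −0.11 with Y640F, and around Fam171a1 the 4 neighbours ran from 0.45 to 1.06. Around Itga9, the 3 neighbours tested in HPCLSK ran from −0.06 to 0.14 with STAT3 and from −0.27 to 0.21 with Y640F. Near Kdr, Clock, a core gene of the circadian oscillator 231 kb away, was higher with both forms in HPCLSK, at 8.16 CPM with STAT3 and 26.5 CPM with Y640F, against 3.38 CPM with empty vector (1.25 ± 0.16 and 2.96 ± 0.15, edgeR adjusted p = 0.00053 and 1.4e-07). Gm19590, also near Kdr, was lower with Y640F (−2.86 ± 0.44, edgeR adjusted p = 0.00028). Agtrap, 10.4 kb from Draxin, was higher with Y640F, at 144 CPM against 67.1 CPM with empty vector (1.10 ± 0.11, edgeR adjusted p = 1.3e-05).

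**Figure D4:**
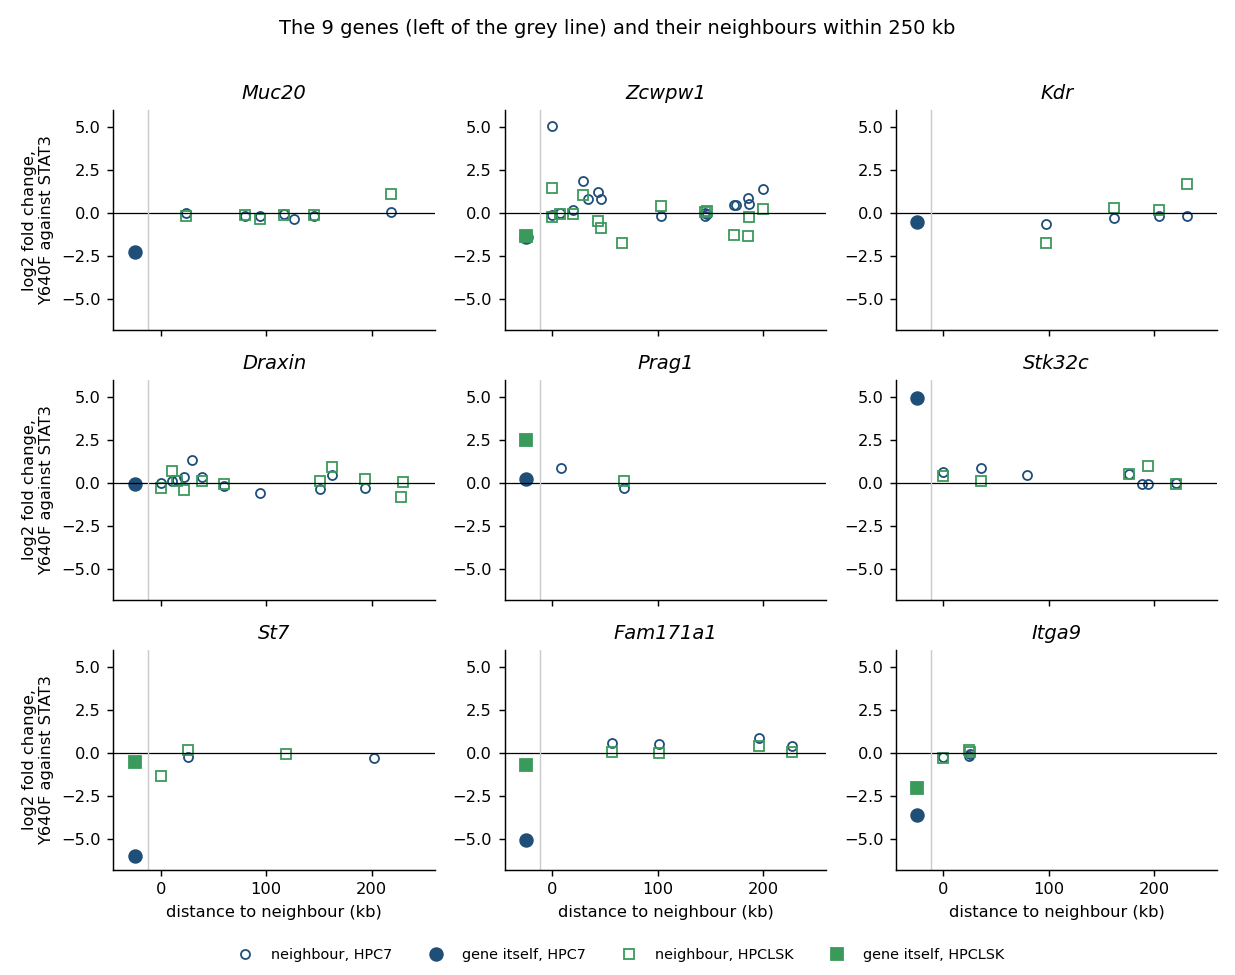
Log2 fold change of Y640F against STAT3 (vertical axis) for each of the 9 genes (filled, left of the grey line) and for tested genes within 250 kb (open, by distance in kb), in HPC7 (blue) and HPCLSK (green); genes below the filter are not drawn. Pilra at 5.10 beside Zcwpw1 is the neighbour farthest from 0.

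The genes whose levels were most like those of each member were found by Pearson's r of log2 CPM over the 18 libraries, among 5053 genes that reached 5 CPM and varied by at least 1 on the log2 scale between group means. The libraries come in 6 groups of 3 and in 2 lines, so a high r mostly restates shared differences between groups. Fam171a1 was most like Smco4 (0.983) and then St7 (0.979), and St7 was most like Fam171a1 and then Paip1 (0.973). The genes most like Muc20 were Ddx51 (0.989) and Fam193a (0.984), those most like Kdr were Chfr (0.986) and Abcb9 (0.984), and those most like Draxin were Ppm1g (0.997) and Eif2b4 (0.993). Kctd12 (0.989) and Coro1c (0.987) were most like Prag1. Of the 8 genes named for Muc20, Kdr, Draxin and Prag1, 7 lie on chromosome 5, which holds 7.76% of the candidates, while Muc20, Draxin and Prag1 lie on other chromosomes. Stk32c was most like Dnlz (0.976) and Med22 (0.955), both on chromosome 2, whose median log2 fold change with Y640F was 0.47 in HPC7. Against empty vector in HPC7, Dnlz changed by 0.80 with Y640F beside 4.99 for Stk32c, Ddx51 by 0.55 with STAT3 beside 3.45 for Muc20, and Abcb9 by 1.87 with STAT3 beside 3.16 for Kdr. The nearest to Itga9 were Ctla2b (0.872) and Nedd4 (0.862), and the nearest to Zcwpw1 were Sox6 (0.831) and Zmym6 (0.794), lower values than for the other 7 members.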

How the data were processed

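RNA libraries of HPC7 and HPCLSK carrying STAT3, Y640F or empty vector were analysed, 18 in 6 groups of 3; the 12 chromatin samples of the series were not analysed here. Deposited for each library were whole-number read counts per gene. The authors made them with featureCounts 1.5.1 over exons, at a reverse-strand setting, on STAR alignments with GENCODE M13 (GRCm38), per the file headers; reads were single-end of 50 bp, and the labels name 2 different stranded library kits. Of 50686 gene IDs 50376 had a symbol, and all 9 members were found. The members and gene lists were chosen with earlier results of these data known.

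Counts were scaled by TMM, filtered with filterByExpr and compared within a line with edgeR 4.0.16 (R 4.3.3; quasi-likelihood test, Benjamini-Hochberg over all genes tested, 9 libraries, 6 residual degrees of freedom). A call needs an adjusted p under 0.05 together with a log2 fold change at or beyond 1 in size. Scripts were tested on simulated data. Levels are CPM over all 18 libraries, so their ratios differ slightly from the fitted fold changes. Floors are 3 counts over a group.

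Named genes are the 9 members, the 2 genes most alike to each (Pearson r of log2 CPM with a prior count of 2), genes within 250 kb called in HPCLSK, up to 3 members of each gene list called in HPCLSK per comparison, and Stat3, Socs3 and Lhx2; 1 gene list is not reported here. Itgb1, Met, Vegfa, Vegfb, cell type markers, Mad2l2, Gm2415, Lrrc27 and the genes named beside counts were added after their values were seen. Alternatives were DESeq2 1.42.0 size factors and its test, no filter, the adjusted p alone, all 18 libraries in 1 fit, a replicate block, and each library left out. Library pairs of a group differed by 2.49 to 27.04 in chi-square per degree of freedom, so none was a duplicate. The pairs with HPCLSK Y640F replicate 1 (21.25 and 27.04) and those with HPCLSK empty vector replicate 1 (8.06 and 10.62) stood apart from the third pair of their group. Every pair of HPC7 empty vector libraries differed widely (10.29 to 20.19), against 3.17 to 4.49 for pairs within HPC7 STAT3 or HPC7 Y640F.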

Additional observations from a re-analysis of the deposited data

Results flagged for a closer look

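Zcwpw1 had opposite signs with Y640F in the lines. Its log2 fold change of Y640F against empty vector was 0.608 in HPC7, where all 3 Y640F libraries lay above all 3 empty vector libraries, and −0.861 in HPCLSK, where all 3 lay below. Neither value reached the minimum fold of the call rule, and the median of tested genes on its chromosome was 0.33 in that HPC7 comparison. The difference between the lines was not tested, because the gene was picked on its HPC7 values.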

How the results depend on the processing

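Each result was recomputed with other size factors, with DESeq2's test, without the filter on low counts, with all 18 libraries in 1 fit, and without each library. No log2 fold change of a member that met the call rule changed sign under these alternatives. Dropping the minimum fold and using the adjusted p alone moved the counts most. Of 12683 genes tested in HPC7, 6165, 7263 and 6488 were called for STAT3 against empty vector, Y640F against empty vector and Y640F against STAT3. Of 12552 in HPCLSK, 1766, 7349 and 6756 were called in the same order, so the last 2 comparisons called most genes tested. Members called in HPCLSK were 2, 5 and 5 of the 5 tested. In HPCLSK this rule also called Zcwpw1 in both comparisons with empty vector, and St7 and Fam171a1 with Y640F against empty vector and against STAT3.

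With 1 library left out, genes called ran from 915 to 969, 1051 to 1103 and 992 to 1059 in HPC7 and from 480 to 670, 1986 to 2155 and 1713 to 1893 in HPCLSK for the same 3 comparisons. Members called stayed at 6 in HPC7 for STAT3 against empty vector and for Y640F against STAT3, and ran from 7 to 8 for Y640F against empty vector. In HPCLSK they were 1, 2 and 2 to 3. Among HPC7 values, Stk32c for Y640F against STAT3 reached 5.47 without STAT3 replicate 2, and Fam171a1 reached −4.91 without Y640F replicate 3. Without HPCLSK empty vector and Y640F replicate 1 together, a choice made after seeing the data, genes called in HPCLSK were 624, 1984 and 1743 and members called 1, 2 and 3.

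The replicate numbers in the titles did not pair the libraries: the correlation of same-numbered deviations from group means ran from −0.07 to 0.035 in HPC7 and from −0.15 to 0.07 in HPCLSK. With the number as a replicate block, genes called were 923, 1035 and 1002 in HPC7 and 548, 2019 and 1761 in HPCLSK, and the members called were as many as without it. The genes most alike to the members depend on the measure: with Spearman's rho another gene came first for each of the 9, and with the other size factors for Kdr.

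Depth limits the members below the filter in HPCLSK. For Muc20 and Kdr, 0 counts over a group allow up to 0.0698 CPM with STAT3, 0.0593 with Y640F and 0.0564 with empty vector, while Draxin and Stk32c rest on 1 to 25 counts per group. The lines differ also in labelled strain and in sequencing run.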

Other observations

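Of 5 paralogs of the members tested in HPCLSK, 1 was higher and 2 lower with Y640F against empty vector, where 16.2% of all genes tested were called, and 0 were called with STAT3 by edgeR or by DESeq2, with 0 at an unadjusted p under 0.05. Muc1, another membrane mucin, stood at 6.20 ± 1.14 CPM with Y640F, against 2.02 ± 0.452 with empty vector (SD, n = 3 each; log2 fold change 1.63 ± 0.24, edgeR adjusted p = 0.00021). Muc13, a mucin of the same family, fell to 302 ± 97.8 CPM with Y640F, against 828 ± 70.0 with empty vector (−1.45 ± 0.20, edgeR adjusted p = 9.9e-05). Fam171a2, the relative of Fam171a1, fell to 5.50 ± 1.63 CPM with Y640F, against 13.9 ± 1.20 with empty vector (−1.30 ± 0.19, edgeR adjusted p = 0.00017), while Fam171a1 itself changed by −0.49 ± 0.13 and was not called. In HPC7, Muc13 was higher with both forms than with empty vector, by 1.59 ± 0.07 with STAT3 (edgeR adjusted p = 1.6e-09) and 2.37 ± 0.07 with Y640F (edgeR adjusted p = 5e-11). The difference between the lines was not tested. Muc13, in HPC7, was singled out after its values were seen.

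Among the netrin receptors, Neo1, which encodes neogenin, was also singled out after its values were seen. In HPC7 it stood at 45.5 ± 1.10 CPM with Y640F, against 7.10 ± 0.231 with STAT3 and 8.49 ± 1.28 with empty vector (SD, n = 3 each; 2.70 ± 0.09 and 2.46 ± 0.09, edgeR adjusted p = 5.5e-11 and 1.6e-10). It was close to 0 in HPCLSK, like Draxin and Kdr.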
